A study of Mus musculus with 6 samples.

Results

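The 40 genes described here are known imprinted genes of the mouse, H19 among them, and they were taken by name from a fixed list. All 40 were found among the 55565 genes listed for the MEFs (mouse embryonic fibroblasts) of the study, and all 40 were among the 26898 genes tested. By published imprinting, which was not measured here, 19 of them are expressed from the maternal allele, 20 from the paternal allele and 1, Gnas, from either allele depending on the transcript. RNA sequencing covered 3 libraries of WT (Mcm8+/+) MEFs and 3 libraries of KO (Mcm8-/-) MEFs, and MCM8, a helicase of DNA repair, was removed by deletion of exon 7 with CRISPR-Cas9. Heterozygous mice of a C57BL/6J × ICR mixed background were crossed, and trunks of their embryos at E13.5, freed of head, tail, limbs, heart and liver, gave the MEFs of both genotypes. Both were immortalized with a lentivirus that carried SV40gp6, selected with puromycin and kept in DMEM with fetal bovine serum. The study's methods speak of 3 biological repeats, and the sources used here do not say whether these were separate embryos, lines or cultures of 1 line. The spread between these libraries may therefore in part be technical. In the edgeR fit every gene took the spread of a trend over genes. Its p-values and standard errors thus do not measure each gene's own spread between libraries.

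Imprinted genes are transcribed mainly from 1 parental copy, and the choice is set by DNA methylation laid down in the egg or the sperm at imprinting control regions and kept through later divisions. Many lie in clusters in which a long noncoding RNA and protein-coding neighbours are expressed from opposite parental copies. Paternally expressed members are often described as growth-promoting and maternally expressed ones as growth-restricting, and H19, Igf2, Dlk1 and others are abundant in embryonic mesenchyme and decline after birth. The counts carry no allele, so the parental copy behind each value was not measured, and in bulk cultures fewer cells of a type and less RNA per cell cannot be told apart.

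Library totals lay between 12722979 counts (WT1) and 21022755 counts (KO1). Mcm8 itself fell from 14.4 ± 1.99 CPM in WT to 4.26 ± 0.170 CPM in KO (SD, n = 3, CPM are counts scaled to the library total with TMM factors). WT1 stood apart from the other WT libraries, with a mean chi-square of their counts of 14.3 and 13.2 per gene against 4.40 between WT2 and WT3. Among the 32 members with at least 1 CPM, however, WT2 was the farthest from the other WT libraries, at a median absolute difference in log2(CPM + 0.5) from the mean of the other two of 0.157, beside 0.142 for WT1 and 0.0895 for WT3. Below, a gene is said to rise or fall where its adjusted p (Benjamini-Hochberg) in edgeR was below 0.05. A differentially expressed gene (DEG) also had a log2 fold change beyond 1 in either direction. Over all genes tested 4.97% rose and 4.03% fell, and 1.75% and 0.665% were DEGs higher and lower in KO. Of 9 fibroblast markers 3 rose and 3 fell, with Thy1 a DEG (394 ± 9.30 CPM in WT, 194 ± 5.99 CPM in KO), and their summed level was 24640 to 29118 CPM in WT and 28595 to 29435 CPM in KO. Markers of other cells also moved with genotype: 2 of 5 epithelial markers rose (Krt8 and Krt18, both DEGs, summed over the list 0.499 to 1.18 CPM in WT, 5.53 to 6.68 CPM in KO), as did 2 of 5 mesothelial (Msln, a DEG, and Krt19, 6.27 to 7.13 and 49.3 to 56.0 CPM), 1 of 5 neuronal (Stmn2, a DEG, 12.8 to 17.2 and 77.9 to 83.3 CPM) and 2 of 5 chondrocyte markers (Sox9 and Acan, both DEGs, 14.0 to 16.2 and 35.8 to 36.5 CPM). Of 8 skeletal muscle markers 1, the DEG Pax3, fell (summed 9.55 to 10.3 CPM in WT, 5.99 to 6.85 CPM in KO), and the defining markers Myod1 and Pax7 were at 0, as were Lrrn4 (mesothelial), Snap25 (neuronal), and Matn1 and Col9a1 (chondrocyte). Msln made up nearly all of the mesothelial rise (mean of 2.88 CPM for WT, 44.9 CPM for KO). Stmn2 did so for the neuronal rise (mean of 9.82 CPM for WT, 73.7 CPM for KO). Not called were Wt1 and Upk3b (mesothelial), Epcam, Cdh1 and Cldn4 (epithelial), Elavl3, Elavl4 and Syt1 (neuronal) and Col2a1 (chondrocyte). Elavl3 alone of these was lower in KO. Whether a cell type as a whole shifted was not tested. No hepatic, trophoblast, endothelial or haematopoietic marker was called. Of the 5 in each list, however, 5 hepatic, 4 trophoblast, 4 haematopoietic and 2 endothelial markers had at most 3 counts in every library. A call was hardly possible for these. At 0 were 3 hepatic, 2 trophoblast, 3 haematopoietic and 1 endothelial marker. Xist was lower in KO (481 ± 11.4 CPM against 1196 ± 224 CPM), and the Y-linked gene Ddx3y was higher (42.6 ± 5.32 CPM against 7.77 ± 0.966 CPM). The part of WT1 and WT2, of these markers and of the sex-linked genes in the differences given next was not tested, except that values without WT1 or WT2 are given where the call of a member with at least 1 CPM changes, and without WT1 where its sign does, for Peg10 and for the ratio of Sgce to Peg10.

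H19 carries the sequence of a miRNA. The hairpin of miR-675 lies inside exon 1 of H19 (GENCODE) at chr7:142577064-142577147 on the minus strand (GRCm38.p6, RefSeq), and its mature products are shown because H19 was the 1 member that met the criteria for a differentially expressed gene (DEG). Capitals mark the seed, bases 2 to 8.
mmu-miR-675-5p: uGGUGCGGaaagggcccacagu
mmu-miR-675-3p: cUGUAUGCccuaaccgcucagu
The separate row of Mir675 held 0 counts in all 6 libraries. A library of long RNA does not measure mature miRNAs, so the level of miR-675 was not measured here.

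Of the 40 imprinted genes, 1 was a DEG higher in KO, H19, and none was a DEG lower in KO, where a DEG has a log2 fold change beyond 1 in either direction together with an adjusted p (Benjamini-Hochberg) below 0.05 in edgeR's quasi-likelihood test. Over all genes tested, 1.75% were DEGs higher in KO and 0.665% were DEGs lower in KO (2.42% in all), so that a count of 1 of 40 was near the background. At the same adjusted p without a limit on the fold, 6 members rose (H19, Nnat, Cdkn1c, Igf2, Peg10 and Dlk1) and 4 fell (Impact, Zdbf2, Mest and Peg3), beside 4.97% and 4.03% of all genes. The other 30 were not called. In all 15 members had an unadjusted p below 0.05, beside 17.9% of all genes, and none of them fell beyond 1 on the log2 scale. DESeq2 called 7 members, beside 6.59% of all genes, with H19 again the 1 DEG. The filter on low values asked for a count in any 1 library, which all 40 members had, and 36 had counts in every library. A mean of at least 1 CPM in WT or KO was reached by 32, of which Asb4 passed only through its KO level and so had to be higher in KO. Among all genes at that level 9.33% rose and 7.82% fell, and 2.95% were DEGs higher in KO.

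Members that rose were found in both parental classes. Of the 19 maternally expressed members 2 rose (H19 and Cdkn1c) and none fell, and of the 20 paternally expressed members 4 rose (Nnat, Peg10, Igf2 and Dlk1) and 4 fell. Over all genes tested 4.97% rose and 4.03% fell, and among genes with at least 1 CPM 9.33% and 7.82%. At such shares, none of 19 falling is near the background. The median log2 fold change of the members with at least 1 CPM was 0.01 over 13 maternally expressed and -0.12 over 18 paternally expressed genes, beside 0.01 over all genes tested and -0.01 over all genes of at least 1 CPM. Over all members of a class the medians were 0.18 and 0.01, but the first of these includes genes with hardly a count. In 6 members every KO library lay above every WT library and in 6 every KO library lay below, beside 11.6% and 10.1% of all genes and 17.4% and 17.0% of genes with at least 1 CPM, which is close to the members' own share.

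**Figure D1:**
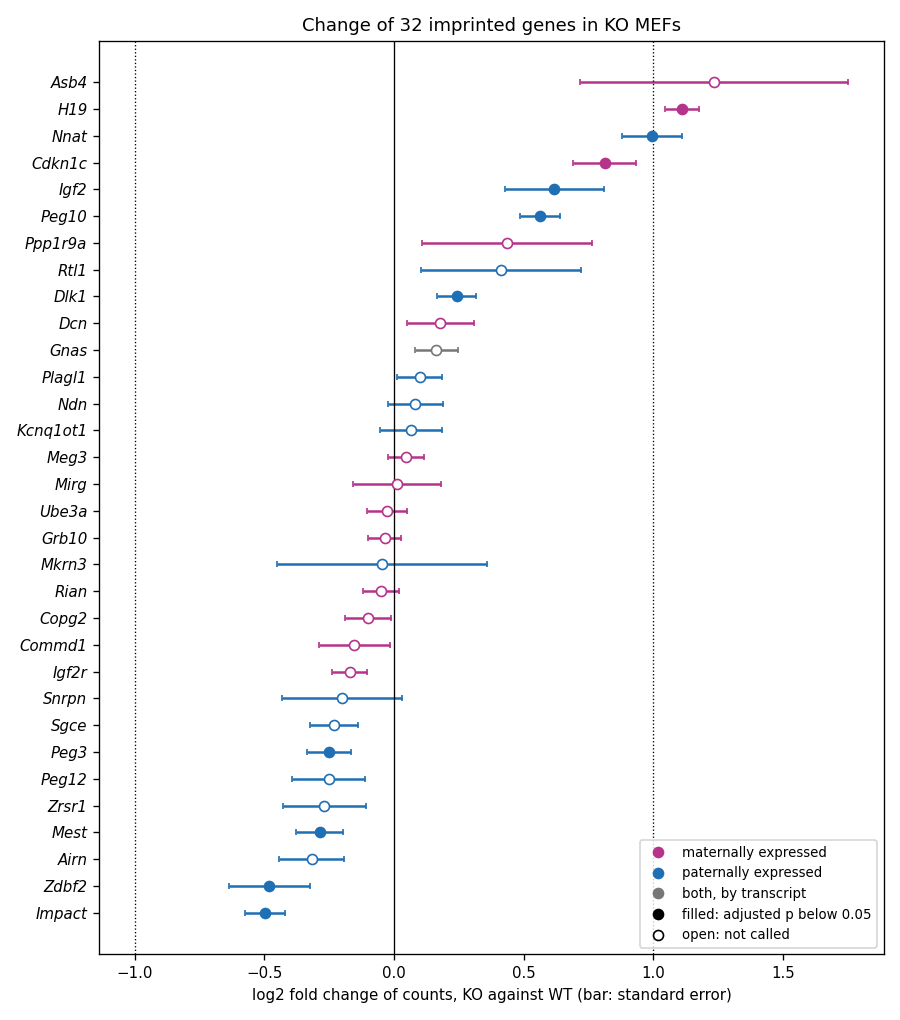
The log2 fold change of counts in KO against WT (x axis, bars are standard errors of the edgeR fit) for the 32 imprinted genes with a mean of at least 1 CPM in either genotype, coloured by published parental expression and filled where the adjusted p was below 0.05. H19 at 1.11 is the 1 filled point beyond the dotted line at 1, Nnat lies at 0.99, Asb4 lies at 1.23 with a wide bar and is open, and the lowest point is Impact at -0.50.

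H19, a noncoding RNA of the maternal copy that is abundant in fetal tissues of mesodermal and endodermal origin, was the most abundant member per length in both genotypes. Its level was 118, 114 and 118 FPKM (fragments scaled by gene length and library total) in WT1, WT2 and WT3 and 250.3, 261 and 243 FPKM in KO1, KO2 and KO3. The groups lay far apart, and the spread within each was small. On the count scale H19 rose from 288 ± 6.77 to 622 ± 21.9 CPM (SD, n = 3, a CV of 2.35% in WT and 3.52% in KO), a 2.16-fold rise with a log2 fold change of 1.11 ± 0.07 (SE) and an edgeR adjusted p of 1.07e-58. It remained a DEG when any 1 of the 6 libraries was left out, with log2 fold changes from 1.08 to 1.14. Tested against a 2-fold change in place of no change, its adjusted p was 0.862, so the rise was larger than the spread between libraries while a rise of more than 2-fold was not shown. The gene (ENSMUSG00000000031) spans 142129266 to 142131880 on the minus strand of chromosome 7 in the coordinates of the deposited table.

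Igf2, the growth factor of the paternal copy that shares enhancers with H19, was measured far lower. Its level was 3.53, 5.203 and 4.29 CPM in WT1, WT2 and WT3 and 8.45, 6.37 and 5.06 CPM in KO1, KO2 and KO3. KO3 lay below WT2, so the groups overlapped. The log2 fold change was 0.62 ± 0.19 (SE, edgeR adjusted p = 0.0163), and the call was lost without WT1 (0.0753), without WT3 (0.0506) or without KO1 (0.469), in DESeq2 (0.128), with the stricter low-count filter filterByExpr (0.0734) and in limma on log2(FPKM + 1) or log2(FPKM + 0.1) (0.390 and 0.385). The log2 fold change itself was 0.39 without KO1 and 0.78 without KO3. It was 0.29 and 0.54 in limma with a pseudocount of 1 and 0.1, 0.61 in DESeq2 and 0.62 with filterByExpr. Per length, Igf2 was at 0.756 ± 0.15 FPKM in WT and 1.15 ± 0.30 FPKM in KO. H19 thus exceeded Igf2 by 191-, 126- and 159-fold in WT1, WT2 and WT3 and by 171-, 235- and 277-fold in KO1, KO2 and KO3. The ratio differed by 0.51 on the log2 scale (exact permutation test, two-sided, p = 0.2, where 0.1 is the smallest that 3 against 3 libraries allow), and WT1 lay above KO1.

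Of the genes around H19, Igf2 was the 1 that was also called. Within 0.2 Mb of H19 20 other genes were listed and 10 were tested. None of these was a DEG and 1, Igf2, passed the adjusted p, beside 2.42% and 9.0% of all genes. A count of 1 of 10 was near that background. Of those with at least 1 CPM, the lysosomal protease Ctsd had a log2 fold change of 0.13 (edgeR adjusted p = 0.345), the leukocyte protein Lsp1 of -0.16 (0.388), the mitochondrial ribosomal protein Mrpl23 of 0.07 (0.765) and Prr33 of 0.01 (0.992). The noncoding Nctc1 and the insulin gene Ins2 were at 0 counts in all libraries. Among receptors, substrates and mRNA-binding proteins through which IGF2 acts or is translated, none of 7 was called, beside 9.0% of all genes, the most abundant by CPM being Igf2bp2 and Igf1r, with a median log2 fold change of -0.08 (unadjusted p below 0.05 in 2, beside 17.9% of all genes, and none called by DESeq2, beside 6.59%).

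**Figure D2:**
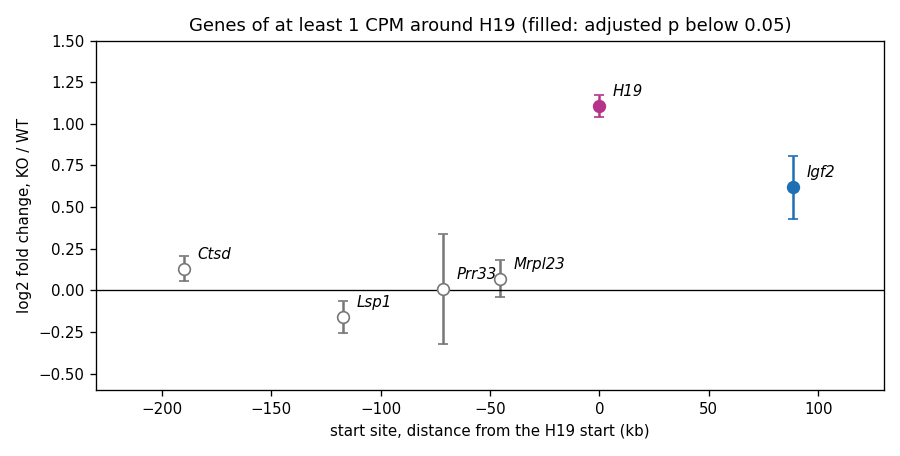
The log2 fold change in KO against WT (y axis, bars are standard errors) of H19 and of the genes with at least 1 CPM around it, by the distance of their start sites from that of H19 in kb along the reference strand. H19 at 1.11 and Igf2 at 0.62 are filled because their adjusted p was below 0.05, and Ctsd, Lsp1, Prr33 and Mrpl23 lie between -0.16 and 0.13.

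Cdkn1c, a cyclin-dependent kinase inhibitor of the maternal copy that restricts growth, rose with all KO libraries above all WT libraries. It was at 12.6, 11.6 and 12.1 CPM in WT1, WT2 and WT3 and at 21.6, 21.6 and 20.4 CPM in KO1, KO2 and KO3. Its log2 fold change was 0.81 ± 0.12 (SE, edgeR adjusted p = 7.90e-10). Kcnq1ot1, the long noncoding RNA transcribed from the paternal copy in the same cluster and linked to silencing of Cdkn1c, was at 12.5, 18.2 and 15.8 CPM in WT and 16.7, 16.9 and 15.2 CPM in KO (0.06, adjusted p = 0.809; -0.06 without WT1). The groups of Kcnq1ot1 overlapped, and its level per length was 0.166 FPKM in WT and 0.174 FPKM in KO because the annotated transcript is 93092 bases long. Of the other genes of the cluster, Phlda2 and Slc22a18 had less than 0.4 CPM on average, and Kcnq1 and Ascl2 had at most 3 counts in any library.

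Nnat, which encodes a small membrane protein of the endoplasmic reticulum best known from developing brain, rose from 13.7, 10.8 and 14.3 CPM in WT to 25.3, 26.7 and 25.4 CPM in KO. All KO libraries lay above all WT libraries, by a margin wider than the spread in either group. The log2 fold change of 0.99 ± 0.11 (SE, edgeR adjusted p = 4.00e-16) was just under the limit for a DEG, and it passed that limit in 4 of the 6 fits that left out a library (without WT1, WT3, KO1 or KO3, at 1.01 to 1.08). Nnat lies inside an intron of Blcap, on the opposite strand, and without strand in the counting the 2445 bases that overlap cannot be assigned with certainty. Blcap itself was at 38.4 ± 2.62 CPM in WT and 36.8 ± 3.11 CPM in KO (log2 fold change -0.06, adjusted p = 0.764).

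Peg10 and Sgce start close together on opposite strands and are both expressed from the paternal copy, and Peg10 was called while Sgce was not. Peg10, a gene derived from a retrotransposon that is needed for the placenta, was at 61.3, 85.5 and 86.4 CPM in WT1, WT2 and WT3 and at 114, 112 and 119 CPM in KO1, KO2 and KO3. WT1 was the lowest library, and all KO libraries lay above all WT libraries (log2 fold change 0.56 ± 0.08, edgeR adjusted p = 1.61e-11). Without WT1 the log2 fold change was 0.42 and the call was kept, but in limma on log2(FPKM + 1) or log2(FPKM + 0.1) it was lost (0.54 and 0.58, adjusted p = 0.0937 and 0.0796). Sgce, which encodes the membrane protein epsilon-sarcoglycan, was at 42.2, 35.7 and 37.6 CPM in WT and at 31.7, 34.7 and 31.8 CPM in KO. Its KO libraries all lay below its WT libraries, but it was not called (-0.23 ± 0.09, adjusted p = 0.112). The ratio of Sgce to Peg10 FPKM was 0.432, 0.262 and 0.274 in WT and 0.175, 0.194 and 0.168 in KO, so that every KO ratio was below every WT ratio (-0.81 on the log2 scale, exact permutation test, two-sided, p = 0.1, the smallest possible). The difference was -0.58 without WT1. Their maternally expressed neighbours are imprinted in certain tissues only: Ppp1r9a was at 0.784, 1.92 and 1.66 CPM in WT and 2.03, 2.22 and 1.75 CPM in KO, and was not called. Asb4, part of a ubiquitin ligase, was at 0.157, 0.855 and 0.376 CPM in WT and 0.991, 1.56 and 0.749 CPM in KO. Its groups overlapped and it was not called (log2 fold change 1.23, adjusted p = 0.120), but without WT2 it was a DEG (1.94, 0.0204), and without WT1 the log2 fold change was 0.88 (0.330). Calcr had at most 1 count in a library.

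Dlk1, a membrane protein related to Notch ligands that holds back adipocyte differentiation, is expressed from the paternal copy. It was at 106.4, 101 and 105 CPM in WT and 121, 124 and 125 CPM in KO. The rise was small but without overlap (log2 fold change 0.24 ± 0.07, edgeR adjusted p = 0.0174), and the adjusted p lay above 0.05 without WT2 (0.0570), KO1 (0.0926), KO2 (0.112) or KO3 (0.118). The maternally expressed noncoding RNAs of its cluster did not pass the test. Meg3 was at 178, 204 and 221 CPM in WT and 207, 213 and 203 CPM in KO (0.05, adjusted p = 0.747; -0.03 without WT1). Rian, a host of snoRNAs and miRNAs, was at 202, 212 and 193 CPM in WT and 207, 197 and 182 CPM in KO (-0.05, 0.721). Mirg, the host of many miRNAs, was at 8.70, 4.92 and 7.51 CPM in WT and 6.89, 6.43 and 7.99 CPM in KO (0.01, 0.979). In each of these RNAs the libraries of the genotypes overlapped. Rtl1, a paternally expressed gene derived from a retrotransposon, was at 2.43, 1.14 and 1.61 CPM in WT and 2.03, 2.83 and 1.998 CPM in KO and was not called. The ratio of Meg3 to Dlk1 FPKM was 0.523, 0.630 and 0.658 in WT and 0.536, 0.540 and 0.506 in KO, a difference of -0.19 on the log2 scale (exact permutation test, two-sided, p = 0.3). The groups overlapped through WT1 alone, and without it the difference was -0.29 (same exact test, p = 0.1, the smallest possible).

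**Figure D3:**
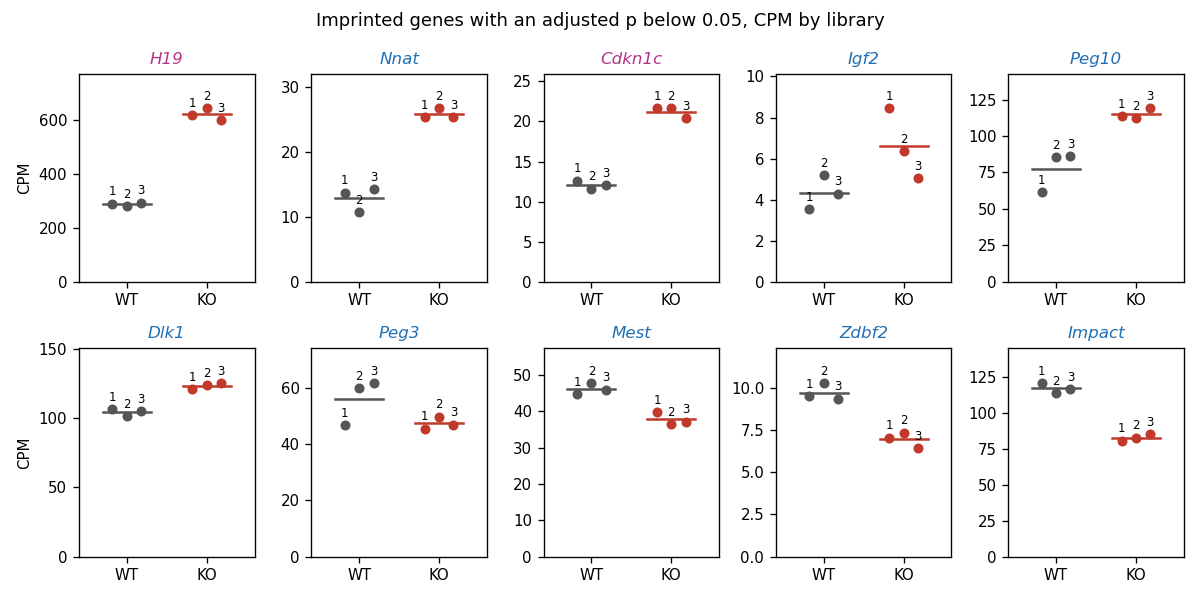
TMM-scaled CPM in each library (points numbered by library, lines are the mean of 3) of the 10 imprinted genes with an adjusted p below 0.05, with a y axis from 0 in every panel. KO libraries lie above all WT libraries in H19, Nnat, Cdkn1c, Peg10 and Dlk1 and below all of them in Mest, Zdbf2 and Impact, while Igf2 and Peg3 overlap, Peg3 through WT1 at 46.7 CPM.

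The 4 members that fell were all of the paternally expressed class, beside 4.03% of all genes that fell. Without WT1 the maternally expressed Igf2r was called lower as well (log2 fold change -0.29). Of the 4, DESeq2 called Impact and Mest only. Impact, which encodes an inhibitor of the kinase GCN2 in the response to amino acid shortage, was at 121, 114 and 116 CPM in WT and 80.6, 82.8 and 84.9 CPM in KO. No WT library was near a KO library, and the KO level was 70.8% of WT (log2 fold change -0.50 ± 0.08, edgeR adjusted p = 3.15e-09). The call was kept without any 1 library. Zdbf2, a zinc finger gene tied to growth and feeding after birth, was at 9.48, 10.3 and 9.34 CPM in WT and 7.03, 7.33 and 6.43 CPM in KO. Its groups did not overlap (-0.48 ± 0.16, edgeR adjusted p = 0.0287), but the adjusted p was above 0.05 without WT2 (0.0911), KO1 (0.10), KO2 (0.0541) or KO3 (0.183), in DESeq2 (0.0853) and in limma (0.311 and 0.442 with a pseudocount of 1 and 0.1).

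Mest, a hydrolase-like protein of mesoderm, was at 44.8, 47.8 and 46.0 CPM in WT and 39.9, 36.5 and 37.2 CPM in KO. The groups did not overlap, and the fall was to 81.9% of the WT level (log2 fold change -0.29 ± 0.09, edgeR adjusted p = 0.0184), with an adjusted p above 0.05 without WT2 (0.0635), KO1 (0.0520), KO2 (0.159) or KO3 (0.148). Copg2, a coat protein subunit that overlaps Mest by 912 bases on the opposite strand, was at 44.0, 42.4 and 42.8 CPM in WT and 38.7, 39.6 and 42.2 CPM in KO (-0.10, adjusted p = 0.614). Peg3, a zinc finger protein with a role in maternal care and growth, was at 46.7, 60.0 and 61.7 CPM in WT and 45.5, 49.8 and 46.9 CPM in KO. WT1 lay among the KO libraries, and the call (-0.25 ± 0.09, edgeR adjusted p = 0.0398) held without WT1 (2.24e-05) and was lost without WT2 (0.187), WT3 (0.359), KO1 (0.307), KO2 (0.0817) or KO3 (0.223), in DESeq2 (0.146), with filterByExpr (0.114) and in limma (0.449 and 0.421 with a pseudocount of 1 and 0.1). Its neighbours Usp29 and Zim1 were under 1 CPM in every library.

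Igf2r, the maternally expressed receptor that carries IGF2 to lysosomes, and Grb10, a maternally expressed adaptor that dampens insulin and IGF1 signalling, followed H19 in level per length. Grb10 was at 784, 874 and 857 CPM in WT and 827, 832 and 794 CPM in KO, and it was not called (log2 fold change -0.04, adjusted p = 0.795). Igf2r was at 406, 530 and 535 CPM in WT1, WT2 and WT3 and at 440, 430 and 435 CPM in KO1, KO2 and KO3. WT1 lay below the KO libraries and the other WT libraries above them, and Igf2r was not called (-0.17, adjusted p = 0.0865), whereas it was called without WT1 (-0.29, 2.18e-11) and lay closer to 0 without WT2 (-0.11, 0.435) or WT3 (-0.10, 0.519). Airn, the paternal noncoding RNA that overlaps Igf2r by 28354 bases on the opposite strand, also had WT1 as its lowest WT library, at 9.72, 20.2 and 17.1 CPM in WT and 12.8, 11.1 and 14.0 CPM in KO (-0.32, adjusted p = 0.102). It was called without WT1 (-0.55, 1.72e-04) and lay closer to 0 without any of WT2 (-0.11, 0.749), WT3 (-0.25, 0.394) or KO2 (-0.24, 0.5002). The ratio of Igf2r to Airn FPKM was 20.8, 13.04 and 15.6 in WT and 17.0, 19.2 and 15.5 in KO, with overlapping groups (0.09 on the log2 scale, exact permutation test, two-sided, p = 0.8). This difference turned negative without WT2 and grew without WT1. Reads from the overlap of the pair cannot be assigned by strand.

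In the Snrpn-Ndn cluster, the region lost or silenced in Prader-Willi and Angelman syndromes in humans, none of 6 members was called by edgeR or DESeq2, and none had an unadjusted p below 0.05, beside 9.0%, 6.59% and 17.9% of all genes, shares at which a count of 0 of 6 is near the background. Ube3a, a ubiquitin ligase imprinted in neurons only, was at 70.1, 85.3 and 71.1 CPM in WT and 76.8, 80.4 and 64.8 CPM in KO. Ndn, a MAGE family protein that restrains growth, was at 23.2, 23.0 and 21.4 CPM in WT and 24.5, 21.5 and 25.4 CPM in KO. Peg12 was at 12.5, 10.3 and 13.1 CPM in WT and 7.88, 11.0 and 11.6 CPM in KO (log2 fold change -0.25, adjusted p = 0.337). The WT and KO libraries overlapped in all of these. Snrpn, a spliceosome protein whose reads may be shared with the overlapping genes Gm38393 and Snurf, was at 4.31, 3.21 and 3.86 CPM in WT and 3.12, 4.03 and 2.75 CPM in KO, Mkrn3 was at 1.10, 1.21 and 1.23 CPM in WT and 1.56, 1.08 and 0.749 CPM in KO, and Magel2 was at up to 0.392 CPM.

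The remaining members stand alone or in pairs, and none was called. Plagl1, a zinc finger transcription factor that is paternally expressed, was at 45.9, 44.2 and 45.5 CPM in WT and 47.1, 51.9 and 46.4 CPM in KO, without overlap but with a log2 fold change of 0.10 (adjusted p = 0.614). Gnas, the stimulatory G protein alpha subunit, was at 57.0, 52.0 and 64.5 CPM in WT and 58.7, 64.6 and 71.7 CPM in KO (0.16, adjusted p = 0.268). Its count pools transcripts from both parental copies, and it overlaps the antisense Gnasas1 by 11117 bases. Zrsr1, a splicing factor gene inside the intron of Commd1 on the opposite strand, was at 8.15, 8.41 and 8.91 CPM in WT and 7.74, 5.95 and 7.43 CPM in KO (-0.27, adjusted p = 0.393). Commd1, a regulator of copper and receptor traffic, was at 14.0, 10.3 and 12.7 CPM in WT and 12.0, 10.8 and 10.4 CPM in KO (-0.15, adjusted p = 0.614). Dcn, a matrix proteoglycan of fibroblasts imprinted in placenta, was at 11.9, 12.0 and 13.4 CPM in WT and 13.6, 15.9 and 12.9 CPM in KO (0.18, adjusted p = 0.531). Of the 9 members whose imprinting is restricted to certain tissues or stages, 6 reached 1 CPM, none was called by edgeR or DESeq2, beside 9.0% of all genes in edgeR, and 1, Asb4, had an unadjusted p below 0.05, beside 17.9%.

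**Figure D4:**
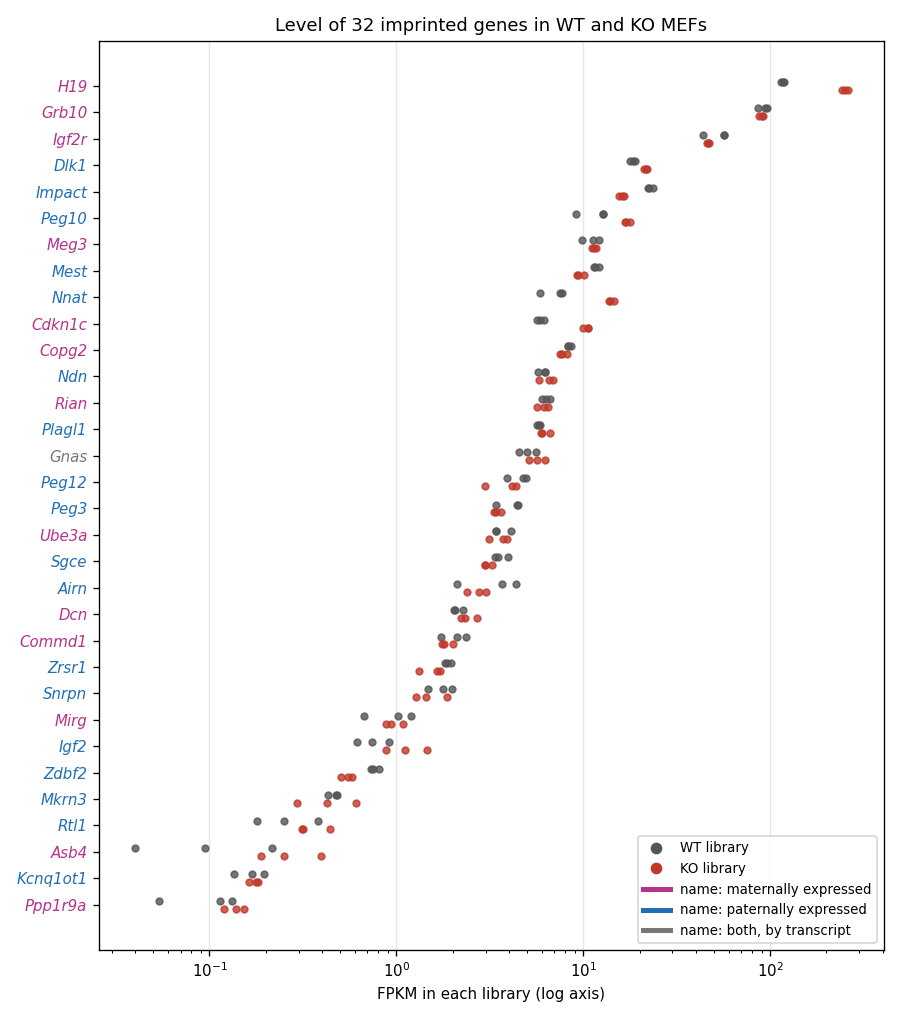
FPKM in each library on a log axis for the 32 imprinted genes with a mean of at least 1 CPM in either genotype, ordered by their mean level. H19, Grb10 and Igf2r lead in both genotypes, the KO points of H19 sit from 243 to 261 FPKM against 114 to 118 FPKM in WT, and Igf2 lies near 1 FPKM.

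The summed level of the 19 maternally expressed members was 302 ± 12.3 FPKM in WT and 433 ± 12.3 FPKM in KO (SD, n = 3; exact permutation test, two-sided, p = 0.1, the smallest possible). The difference rested on H19, since without H19 the sums were 185 ± 13.2 and 182 ± 3.63 FPKM and overlapped (p = 0.6, same exact test). The 20 paternally expressed members summed to 105 ± 2.09 FPKM in WT and 110 ± 1.37 FPKM in KO (p = 0.1, same exact test, but p = 0.7 with overlapping groups for summed CPM), and without Dlk1, the most abundant of them over both genotypes, to 86.6 ± 2.31 and 88.3 ± 0.952 FPKM (p = 0.3, same exact test). The sums give most weight to abundant genes and say nothing of the members singly.

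Promoter sequences were at hand for 32 of the 40 members (RefSeq, GRCm38.p6, 250 bases before to 50 bases after each start) and for 6 of the 10 that were called. They were searched on both strands for TGCCGC, the core bound by ZFP57, a zinc finger protein that protects imprints at methylated control regions. The core was present in 13 of 50 member promoters (26.0%) and in 3813 of 32851 promoters of the whole table (11.6%). The member promoters also held more CpG, a median of 13.5 against 7, and the core itself holds a CpG. By class it was present in 6 of 21 promoters of maternally expressed members (28.6%) and 7 of 25 of paternally expressed members (28.0%). A match is a description of the letters and shows no binding. Of the called members, Nnat had 1 match in its promoter, Mest 2 in each of 2 of its 3 promoters, Zdbf2 3 in 1 of 2 promoters and Igf2 1 in 1 of 4 promoters, and those of Dlk1 and Peg3 had none. The Mest promoters with a match overlap almost fully, so 1 sequence counts as 2 of the 13. Nnat, which rose, and Mest and Zdbf2, which fell, are shown, with the matches in capitals.
Nnat, chr2:157559828-157560127, plus strand: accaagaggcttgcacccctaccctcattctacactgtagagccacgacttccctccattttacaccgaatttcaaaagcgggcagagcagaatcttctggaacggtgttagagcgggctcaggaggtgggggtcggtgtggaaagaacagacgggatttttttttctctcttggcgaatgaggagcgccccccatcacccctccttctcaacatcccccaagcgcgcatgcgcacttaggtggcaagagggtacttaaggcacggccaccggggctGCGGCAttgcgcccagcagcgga
Mest, chr6:30737800-30738099, plus strand: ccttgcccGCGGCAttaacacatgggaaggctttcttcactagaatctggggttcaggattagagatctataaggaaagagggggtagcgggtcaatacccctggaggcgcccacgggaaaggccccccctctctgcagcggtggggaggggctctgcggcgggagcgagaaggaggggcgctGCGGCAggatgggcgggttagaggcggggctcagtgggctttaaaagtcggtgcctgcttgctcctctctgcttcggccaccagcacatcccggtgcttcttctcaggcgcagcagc
Zdbf2, chr1:63200108-63200407, plus strand: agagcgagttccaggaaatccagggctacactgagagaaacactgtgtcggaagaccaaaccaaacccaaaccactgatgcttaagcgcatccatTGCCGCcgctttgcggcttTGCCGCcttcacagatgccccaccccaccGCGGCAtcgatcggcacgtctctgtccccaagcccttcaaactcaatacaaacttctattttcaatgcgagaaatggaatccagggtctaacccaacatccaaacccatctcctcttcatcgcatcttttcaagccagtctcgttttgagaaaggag

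Imprinted genes outside the 40 were called in a share near the background. Of 27 further imprinted genes 23 were tested, of which 1 rose and 1 fell, beside 4.97% and 4.03% of all genes, with a median log2 fold change of 0.05. The 1 that rose, Dio3, at the far end of the Dlk1 cluster, inactivates thyroid hormone. It was near the limit of detection in WT at 0.0784, 0.285 and 0.215 CPM and was at 1.04, 1.08 and 1.31 CPM in KO, a DEG without overlap (log2 fold change 2.49 ± 0.66, edgeR adjusted p = 7.79e-04). The 1 that fell, the amino acid transporter Slc38a4, was at 153, 161 and 154 CPM in WT and 134, 133 and 132 CPM in KO (-0.23 ± 0.07, edgeR adjusted p = 0.0180).

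Of 14 genes for factors that set or keep imprints or, like the Tet oxidases, act in removing DNA methylation, 13 were tested, none was a DEG, 2 rose and none fell, beside 4.97% and 4.03% of all genes, with a median log2 fold change of 0.04 (unadjusted p below 0.05 in 4, and 1 called by DESeq2, beside 17.9% and 6.59% of all genes). Trim28, the corepressor that ZFP57 recruits, was at 479, 452 and 445 CPM in WT and 530, 513 and 535 CPM in KO (0.20 ± 0.07, edgeR adjusted p = 0.0339). Tet3, a 5-methylcytosine oxidase, was at 80.5, 105 and 112 CPM in WT and 116, 114 and 120.1 CPM in KO (0.23 ± 0.08, edgeR adjusted p = 0.0264), with WT1 the lowest. The maintenance methyltransferase Dnmt1 was at 533 ± 47.7 CPM in WT and 548 ± 8.81 CPM in KO (0.04, adjusted p = 0.770). Zfp57 was at 42.0 ± 2.02 and 39.4 ± 3.91 CPM (-0.10, adjusted p = 0.632), and CTCF, which insulates Igf2 from its enhancers on the maternal copy, had a log2 fold change of 0.00 for Ctcf (adjusted p = 0.985). DNA methylation was not measured in these libraries.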

How the data were processed

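The authors deposited, for 6 libraries, a table of raw counts per gene and a table of FPKM values, and FPKM was proportional to counts over gene length within a library. The submitters' processing notes name CASAVA 1.8, fastp, HISAT2 2.0.5, featureCounts 1.5.0-p3 and DESeq2 1.20.0 with GRCm38 and mm10, while the study's methods name Ensembl 106. The table's coordinates differed from GRCm38 for 35 of the 40 genes, so they are given as deposited, and sequences come from RefSeq on GRCm38.p6. The library kit as named does not mark strand, and strand in the counting is not given in the sources used here.

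The counts were fitted with edgeR 4.0.16 (TMM, quasi-likelihood, no covariates, Benjamini-Hochberg adjustment over the 26898 genes whose FPKM exceeded 0 in any library) in R 4.3.3, with limma 3.58.1 and DESeq2 1.42.0 as alternatives. Prior degrees of freedom were infinite, so every gene took the trend's spread, which makes p-values too small for more variable genes. Ratios and sums of FPKM were compared by exact permutation of 3 against 3 libraries. Members with at least 1 CPM in either genotype or called are given by library. From other lists DEGs and some abundant genes are named, and Slc38a4 and Tet3 were chosen after their values were seen. The members and lists were chosen with earlier results of these data known. Library totals of 12722979 to 21022755 counts limit precision for genes near 1 CPM. Alternatives are listed in the closing section.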

Additional observations from a re-analysis of the deposited data

How the results depend on the processing

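Of the 32 members with at least 1 CPM, 32 kept direction and side of the threshold with RLE scaling, 30 with filterByExpr and 30 with an FPKM above 0 in every library (Igf2 and Peg3 were lost in both), 29 in DESeq2 (Igf2, Peg3 and Zdbf2 lost) and 28 in limma on log2(FPKM + 1) or log2(FPKM + 0.1) (Peg10 lost as well). No direction was reversed among values that were called, while Meg3, Kcnq1ot1, Mirg, Mkrn3, Rian and Ube3a, none of them called, changed sign in at least 1 fit that left out a library. Against a 2-fold change none of the 40 was called, whether as DEG or by adjusted p (0 higher, 0 lower). Members that fell numbered 2 in DESeq2, 2 in limma with either pseudocount, and 1 to 6 when a library was left out. Members that rose then numbered 4 to 6, DEGs 1 to 2 higher and 0 lower. The adjusted p of H19 ranged from 2.58e-153 to 0.862 over all alternatives. With the replicate number as a block, DEGs higher among members were 2, since the log2 fold change of Nnat was then just above 1, and Peg3 was lost. The numbers are not shown to pair libraries (correlation of deviations from the group means -0.03, -0.01 and 0.05 for same-numbered libraries).

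DEGs among all genes, 472 higher and 179 lower, were 157 and 43 against a 2-fold change, 99 and 39 in limma with a pseudocount of 1 and 251 and 88 with 0.1, and ranged from 388 to 475 and from 157 to 196 without 1 library. The median of maternally expressed members was 0.0156 with filterByExpr, 0.11 with an FPKM above 0 in every library, 0.0174 and 0.0708 in limma with a pseudocount of 1 and 0.1, 0.0111 over genes of at least 1 CPM (added after seeing the data) and 0.0498 to 0.293 without 1 library. That of paternally expressed members was -0.119, -0.0438, -0.0232 (pseudocount 0.1), -0.124 and -0.0740 to 0.0794. Summed CPM in place of FPKM gave differences of 265 (maternal) and 10.8 (paternal, exact p = 0.7 in place of 0.1), and leaving out the most abundant member gave -3.86 and 1.77 FPKM. Without 1 library these differences were 124 to 137 and 4.14 to 6.21 FPKM, and the log2 ratios differed by 0.35 to 0.71 (H19 to Igf2), -0.29 to -0.12 (Meg3 to Dlk1), -0.07 to 0.27 (Igf2r to Airn) and -0.94 to -0.58 (Sgce to Peg10), where 2 against 3 libraries cannot give an exact p below 0.1. Unless named, the cause was not tested.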
